A study of Mus musculus with 45 samples.

Results

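The lysosome is the acidic compartment in which cells digest proteins, glycans and lipids, and this account describes 39 mouse genes of its machinery in the medial prefrontal cortex. The genes were taken by symbol from a list of names and not by a threshold on their values, although the list was chosen with earlier results of these data known. All 39 were found among the 24421 genes of the count tables, all 39 had counts in every library, and all 39 passed the filter on low counts in each comparison. By role they are 8 cysteine proteases, 3 aspartic and serine proteases, 10 glycosidases and sulfatases, 8 lipid enzymes and lipid carriers, 7 membrane proteins and 3 regulator and secreted proteins. The study sequenced poly(A) RNA of C57BL/6J mice, with age and sex not given in the sources used here. Ethanol mice could drink 15% (v/v) ethanol on alternate days over 72 days and were killed 24 h after the final drinking day, and water mice were kept on water over 72 days. Each mouse could give cells isolated with beads against ACSA2, a surface antigen of astrocytes, and a total homogenate set aside from the same minced tissue. There were 10 isolated libraries from ethanol mice, 10 isolated libraries from water mice, 12 homogenates from ethanol mice and 12 homogenates from water mice, and 20 of the 24 mice gave both. The labels call the isolated cells astrocytes; they are called isolated cells here, because markers of several other cell types were also higher in them.

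Newly made lysosomal enzymes are tagged with mannose 6-phosphate and carried to the lysosome as inactive precursors, where the low pH set by a proton pump, the v-ATPase, activates them. Their genes are partly controlled together by the transcription factor TFEB, which binds an E-box sequence in many of their promoters. In brain, the compartment is present in all cells and is prominent in microglia, the resident phagocytes, while inherited loss of single lysosomal enzymes leads to storage disorders that often affect neurons.

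The promoters of the members were searched for the E-box. RefSeq windows on GRCm38.p6, from 250 bases before to 50 bases after the annotated start, were on hand for 35 of the 39 genes (40 windows). The E-box core CACGTG stood in 27.5% of these windows and in 7.15% of all 32851 windows, and the longer GTCACGTG, searched on both strands, stood in 20.0% against 2.25%. Longer matches with A after it were in 7.5% of the member windows and in 0.782% of all. The longest matches searched, with AC after it, were in 0% of the member windows and in 0.326% of all. The 40 member windows are too few to show a share that low. The 8 members with GTCACGTG were Ctsa, Ctsd, Glb1, Lamp1, Lgmn, Mcoln1, Naglu and Sgsh. Some of these sites are shown with their flanks, written 5′ to 3′ on the gene's strand with the motif, or its reverse complement CACGTGAC, in capitals. They were picked to set Ctsd and Lgmn, which were high in isolated cells, beside Glb1 and Mcoln1, which were near the homogenate level.
Ctsd (chr7:142387906-142387937, minus strand): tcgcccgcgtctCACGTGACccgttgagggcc
Lgmn (chr12:102439124-102439155, minus strand): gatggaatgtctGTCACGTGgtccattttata
Lamp1 (chr8:13159121-13159152, plus strand): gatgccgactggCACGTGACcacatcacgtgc
Glb1 (chr9:114401016-114401047, plus strand): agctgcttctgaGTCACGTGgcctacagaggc
Mcoln1 (chr8:3500434-3500465, plus strand): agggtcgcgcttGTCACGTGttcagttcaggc
The motif starts 98 bases before the annotated start in Ctsd, 51 in Lgmn, 28 in Lamp1, 50 in Glb1 and 73 in Mcoln1. A match describes these letters only and is not evidence of binding.

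A second motif was searched on both strands, GAGGAAGT, an ETS-type sequence of the kind bound by PU.1, a transcription factor of macrophages and microglia. It stood in 3 of the 40 member windows (7.5%) and in 3.20% of all windows. The 3 members with it were Ctsc, Ctss and Gusb, shown here because all were among the genes with the higher fold changes described next. In each the match is the reverse complement, ACTTCCTC.
Ctsc (chr7:88277922-88277953, plus strand): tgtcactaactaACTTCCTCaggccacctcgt
Ctss (chr3:95526772-95526803, plus strand): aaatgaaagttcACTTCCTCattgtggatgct
Gusb (chr5:130003000-130003024, minus strand): ggacttcaagcgACTTCCTCtttct
The motif starts 151 bases before the annotated start in Ctsc, 2 before it in Ctss and 37 after it in Gusb.

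Total gene counts ranged from 504492 to 3248804 in isolated libraries and from 3673811 to 9109247 in homogenates. Of the isolated libraries, 5 of 10 from water mice and 0 of 10 from ethanol mice held under 1000000 counts. Among water mice, the isolated library of mouse 73 stood apart, with the highest astrocyte marker level and the lowest microglial marker level of all 20. Levels below are CPM, counts per 1000000 after scaling of library sizes (TMM) over all 44 libraries, and changes are log2 fold changes ± SE from edgeR's quasi-likelihood test. Genes with a false discovery rate (FDR, adjusted over all genes tested) under 0.05 were called. In these bulk libraries, more cells of a type and more RNA per cell cannot be told apart, and the isolated cells were also dissociated, freed of myelin and captured, so handling and cell type cannot be told apart either.

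Isolated cells were set against homogenates first. Most lysosomal transcripts were far more abundant in the isolated cells. Together the 39 genes made up 1.31% ± 0.106 (SD, n = 10) of gene counts in isolated cells of ethanol mice, against 0.402% ± 0.0247 (SD, n = 12) in their homogenates. In water mice the shares were 1.40% ± 0.207 (SD, n = 10) in isolated cells and 0.403% ± 0.0403 (SD, n = 12) in homogenates. In ethanol mice 37 members were higher and 1 was lower in isolated cells, with 29 higher by at least 2-fold. Of all 13489 genes tested there, 39.8% were higher, 41.9% were lower and 20.4% were higher by at least 2-fold. In water mice 37 members were likewise higher and 1 was lower, with 31 higher by at least 2-fold, against 37.2%, 40.3% and 19.0% of the 13434 genes tested. The median log2 fold change of the members was 1.94 in ethanol mice and 1.87 in water mice, while the median of all genes was -0.04 in ethanol mice.

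**Figure D1:**
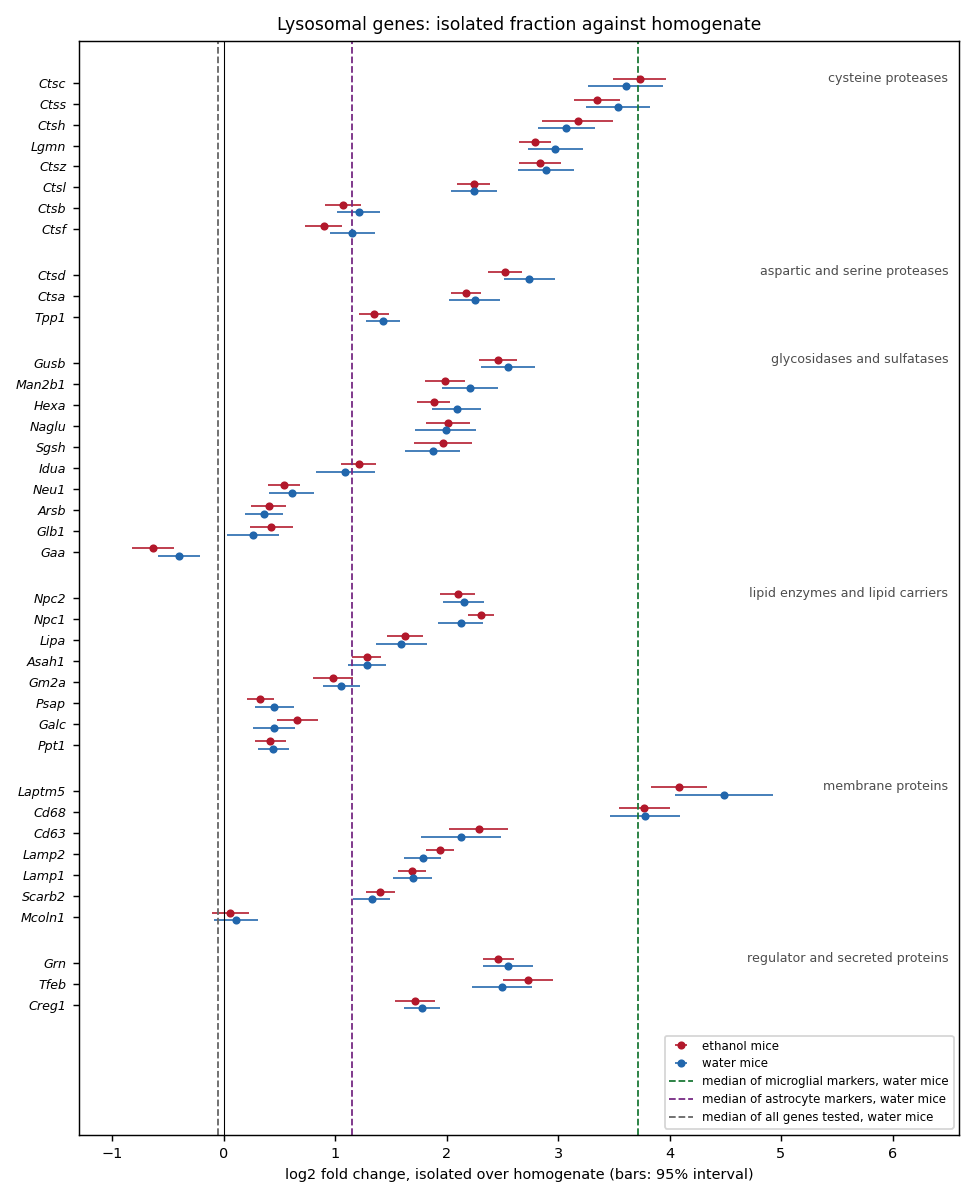
Log2 fold change of isolated cells over homogenate for the 39 lysosomal genes, grouped by role, with points for ethanol mice (red, 10 and 12 libraries) and water mice (blue, 10 and 12 libraries), bars for 95% intervals and dashed lines for medians of marker lists and of all genes tested in water mice. Laptm5 lies highest at 4.09 in ethanol mice and 4.49 in water mice, and Gaa lies below 0 in both.

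The lower gene was Gaa and the uncalled one Mcoln1 in both sets of mice. These comparisons have no library in common, and all 39 members had the same sign in both, with 37 of 39 fold changes within 0.25 on the log2 scale. The largest disagreement, 0.40, was that of Laptm5. In ethanol mice 33 members had every isolated library above every homogenate (19.9% of all genes tested), and in water mice 30 did (15.6%). Gaa was the 1 member with every isolated library below every homogenate, in both sets of mice (27.2% and 22.3% of all genes tested lay so in ethanol and in water mice). Within the 20 mice that gave both fractions, 32 members were higher in the isolated cells of all 20 and Gaa was lower in all 20, against 19.9% and 28.0% of the 13332 genes tested in both sets of mice. Of the other 6, Neu1, Idua and Ppt1 were higher in 19 of 20, Arsb in 18, Glb1 in 14 and Mcoln1 in 8.

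All 8 cysteine proteases were higher in isolated cells, and this class held the highest median log2 fold change of the 6 roles, 2.82 in ethanol mice and 2.93 in water mice. Ctsc encodes cathepsin C, a dipeptidyl peptidase that activates other proteases. Its lowest, median and highest CPM were 82.1, 103 and 135 in isolated cells of ethanol mice, against 6.58, 8.29 and 13 in their homogenates. In water mice they were 66.2, 93.3 and 162 in isolated cells, against 5.55, 7.63 and 12.1 in homogenates. The fractions did not overlap, and the log2 fold change was 3.73 ± 0.12 in ethanol mice (FDR 3.76e-21) and 3.61 ± 0.16 in water mice (FDR 3.54e-17).

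Close to Ctsc stood Ctss, the cathepsin of antigen-presenting cells and microglia (3.35 ± 0.10 in ethanol mice, 3.53 ± 0.14 in water mice). The aminopeptidase gene Ctsh (3.17 ± 0.16 in ethanol mice, 3.07 ± 0.13 in water mice), the carboxypeptidase gene Ctsz (2.84 ± 0.09 in ethanol mice, 2.89 ± 0.12 in water mice) and the asparaginyl endopeptidase gene Lgmn (2.80 ± 0.07 in ethanol mice, 2.98 ± 0.12 in water mice) followed. Ctsl, a broad endopeptidase, changed by 2.24 ± 0.07 in ethanol mice and 2.25 ± 0.10 in water mice. Ctsb and Ctsf changed least. Ctsb, the gene of cathepsin B, was higher by 1.07 ± 0.08 in ethanol mice and 1.21 ± 0.09 in water mice, although up to 16.3% of its exon length overlaps Fdft1 on the other strand.

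Ctsf, which encodes cathepsin F, had 73.9, 96.5 and 111 CPM (lowest, median and highest) in isolated cells of ethanol mice, against 43.9, 50.9 and 68.3 in their homogenates. Its CPM in water mice were 74, 112 and 143 in isolated cells, against 42.2, 50.9 and 61.3 in homogenates. The fractions did not overlap here either, with log2 fold changes of 0.90 ± 0.08 in ethanol mice (FDR 3.27e-11) and 1.15 ± 0.10 in water mice (FDR 2.76e-11).

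The 3 aspartic and serine protease genes were all higher in isolated cells. Ctsd, the gene of the main aspartic protease of lysosomes, had 1408, 1719 and 2009 CPM (lowest, median and highest) in isolated cells of ethanol mice, against 275, 318 and 345 in their homogenates. Water mice had 1371, 1937 and 2449 CPM in isolated cells, against 254, 311 and 384 in homogenates. Its log2 fold change was 2.52 ± 0.07 in ethanol mice (FDR 1.23e-21) and 2.74 ± 0.11 in water mice (FDR 3.55e-18). Its transcript shares 32.4% of its 50-base stretches with the gene Gm49369, so the counting could have split or dropped some of its reads.

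Ctsa, which encodes the carboxypeptidase that protects the enzymes of Glb1 and Neu1, was 4.51-fold higher in isolated cells of ethanol mice and 4.77-fold higher in those of water mice, with 22.3% of its exon length shared with Neurl2 and Pltp on the other strand. Tpp1, a tripeptidyl peptidase gene, had 163, 214 and 233 CPM in isolated cells of ethanol mice, against 80.6, 83.9 and 92.4 in their homogenates. In water mice it had 192, 215 and 255 CPM in isolated cells, against 74.4, 86.1 and 97.7 in homogenates. The log2 fold change of Tpp1 was 1.35 ± 0.07 (FDR 4.86e-17) in ethanol mice and 1.43 ± 0.07 (FDR 6.16e-16) in water mice, the smallest of the class.

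The 10 glycosidases and sulfatases were the most divided class, with 9 higher and 1 lower in both sets of mice. Gusb, the gene of beta-glucuronidase, had 74, 94.4 and 114 CPM (lowest, median and highest) in isolated cells of ethanol mice, against 15.0, 18.5 and 21.2 in their homogenates. Its CPM in water mice were 70.7, 92 and 133 in isolated cells, against 13, 17.2 and 21.8 in homogenates. Gusb led the class, with a log2 fold change of 2.46 ± 0.08 in ethanol mice (FDR 2.34e-20) and 2.55 ± 0.12 in water mice (FDR 4.13e-17).

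Naglu and Sgsh, both of heparan sulfate breakdown, changed by 2.01 ± 0.10 and 1.97 ± 0.13 in ethanol mice and by 1.99 ± 0.13 and 1.87 ± 0.12 in water mice, with 21.9% of the exon length of Sgsh shared with Card14 on the other strand. Man2b1, the lysosomal alpha-mannosidase gene, changed by 1.98 ± 0.09 in ethanol mice and 2.21 ± 0.12 in water mice. Hexa, the alpha subunit gene of beta-hexosaminidase, changed by 1.88 ± 0.07 in ethanol mice and 2.09 ± 0.11 in water mice. Idua, which also acts on heparan and dermatan sulfate, was intermediate at 1.21 ± 0.08 in ethanol mice and 1.09 ± 0.13 in water mice.

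The sialidase gene Neu1 changed less (0.54 ± 0.07 in ethanol mice, 0.61 ± 0.10 in water mice). In ethanol mice every isolated library was still above every homogenate for Neu1. Nearer the homogenate level lay the arylsulfatase B gene Arsb (0.40 ± 0.08 in ethanol mice, 0.36 ± 0.08 in water mice) and the beta-galactosidase gene Glb1 (0.43 ± 0.10 in ethanol mice, 0.26 ± 0.12 in water mice). The call of Glb1 in water mice was marginal (FDR 0.0403), and it was lost with the mouse as a block (0.26, FDR 0.0970).

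Gaa, which encodes the acid alpha-glucosidase that degrades glycogen, went the other way. It had 173, 190.3 and 226 CPM (lowest, median and highest) in isolated cells of ethanol mice, against 266, 305 and 481 in their homogenates. Water mice had 165, 211 and 246 CPM in isolated cells, against 251, 279 and 399.9 in homogenates. Every isolated library was thus below every homogenate in each set of mice, and the log2 fold change was -0.64 ± 0.09 in ethanol mice (FDR 3.79e-07) and -0.40 ± 0.09 in water mice (FDR 0.000276).

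All 8 lipid enzymes and carriers were higher in isolated cells. Npc2 and Npc1, whose proteins pass cholesterol out of the lysosome one after the other, led the class together. Npc2 had 162, 217 and 268 CPM (lowest, median and highest) in isolated cells of ethanol mice, against 47.1, 54.6 and 60.2 in their homogenates. In water mice it had 205, 214 and 274 CPM in isolated cells, against 45.5, 53.5 and 75.7 in homogenates. Its log2 fold change was 2.10 ± 0.08 in ethanol mice (FDR 1.25e-19) and 2.15 ± 0.09 in water mice (FDR 6.7e-18), beside 2.31 ± 0.06 in ethanol mice and 2.12 ± 0.10 in water mice for Npc1.

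The acid lipase gene Lipa changed by 1.62 ± 0.08 in ethanol mice and 1.59 ± 0.11 in water mice, the acid ceramidase gene Asah1 by 1.28 ± 0.06 in ethanol mice and 1.29 ± 0.08 in water mice, and Gm2a, which encodes the activator of ganglioside GM2 breakdown, by 0.98 ± 0.09 in ethanol mice and 1.05 ± 0.08 in water mice. The galactosylceramidase gene Galc, whose substrate is a myelin lipid, changed by 0.66 ± 0.09 in ethanol mice and 0.46 ± 0.09 in water mice. Psap, the precursor gene of the saposins that present lipids to their hydrolases, was abundant everywhere. It had 1259, 1325 and 1493 CPM in isolated cells of ethanol mice, against 989.8, 1146 and 1220.1 in their homogenates. In water mice it had 1235, 1459.8 and 1673 CPM in isolated cells, against 967, 1113 and 1369 in homogenates. Psap changed by 0.33 ± 0.06 in ethanol mice (FDR 1.2e-05) and 0.46 ± 0.08 in water mice (FDR 2.16e-05).

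Ppt1, the gene of a thioesterase that removes palmitate from proteins, had 100.4, 109 and 128 CPM in isolated cells of ethanol mice, against 72.7, 85.7 and 117 in their homogenates. Its CPM in water mice were 90.4, 107 and 112 in isolated cells, against 70.2, 79.5 and 90.7 in homogenates. The fractions overlapped in both sets of mice, with log2 fold changes of 0.42 ± 0.07 in ethanol mice (FDR 2.92e-06) and 0.45 ± 0.07 in water mice (FDR 1.21e-06).

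Of the 7 membrane protein genes 6 were higher in isolated cells, and their log2 fold changes were widely spread. Laptm5, a lysosomal transmembrane protein gene of blood-derived cells and microglia, had 785, 1114 and 1637 CPM (lowest, median and highest) in isolated cells of ethanol mice, against 59.5, 70.3 and 84.7 in their homogenates. Water mice had 739, 1381 and 2571 CPM in isolated cells, against 54.9, 66.1 and 116 in homogenates. The log2 fold change was 4.09 ± 0.12 in ethanol mice (FDR 1.97e-21) and 4.49 ± 0.21 in water mice (FDR 1.96e-16). In isolated cells of water mice, the 5 libraries under 1000000 counts held 1459 to 2571 CPM of Laptm5, above the 739 to 1303 CPM of the other 5. Without those shallow libraries its log2 fold change in water mice was 3.92. Laptm5 was the 1 member of 39 for which these sets of water libraries did not overlap, and the share over all genes was not counted. For 28 of 39 members the median was higher in the shallow libraries than in the other 5. That share was not counted over all genes either, so it is not shown to be a trait of the members. Marker levels of these sets are given with the ethanol comparison below.

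**Figure D2:**
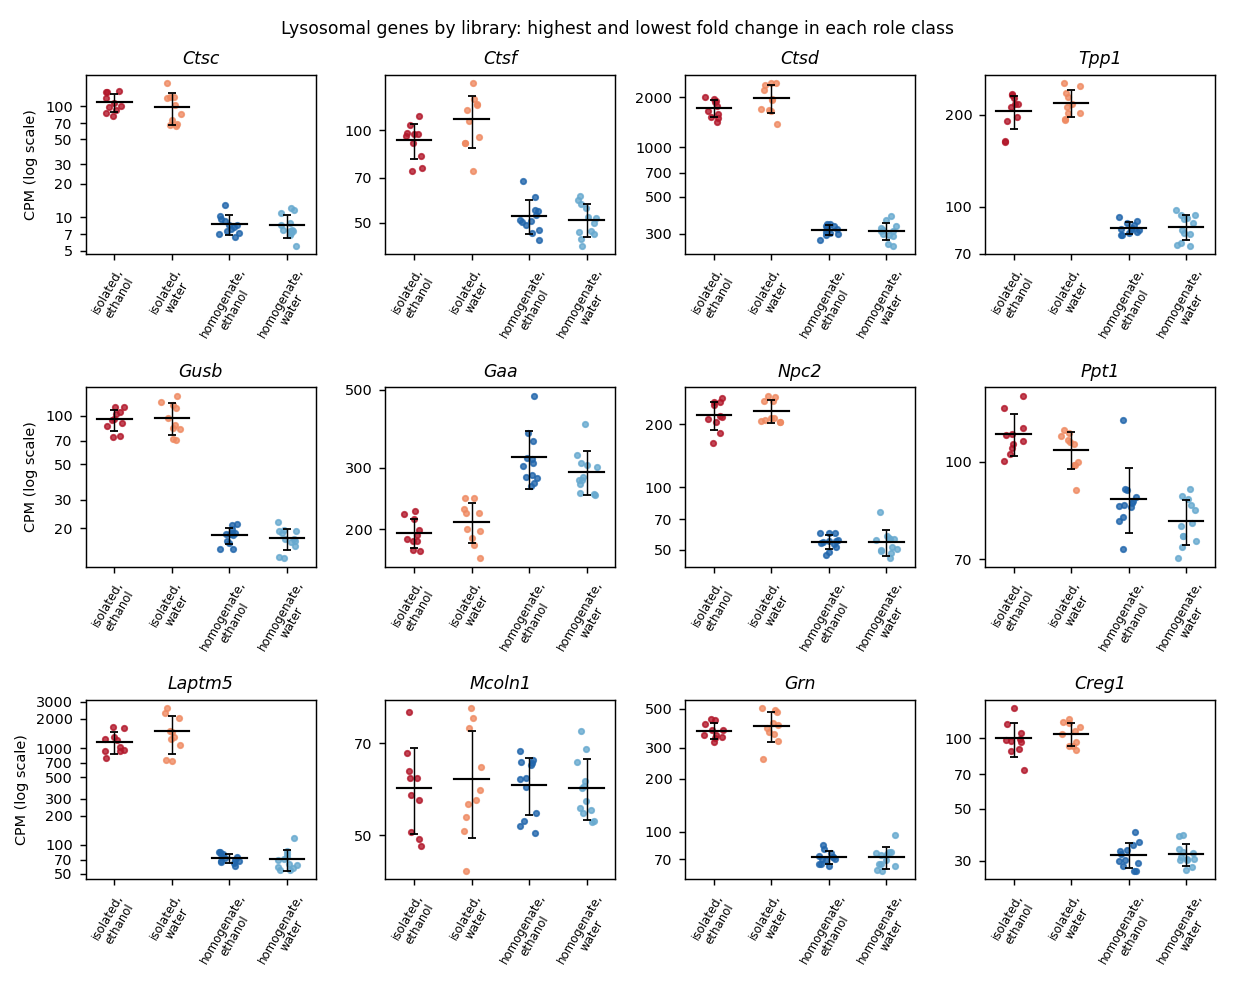
CPM (log axis) in each library for the member with the highest and the member with the lowest fold change in each role class, with 1 point per library, a horizontal line at the mean and bars of 1 SD. Isolated libraries lie apart from homogenates for Ctsc, Ctsd and Gusb, below them for Gaa, and on both sides of them for Mcoln1.

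Cd68, the gene of macrosialin, a glycoprotein of macrophage and microglial lysosomes, changed by 3.77 ± 0.11 in ethanol mice and 3.78 ± 0.15 in water mice. The tetraspanin gene Cd63 followed with 2.29 ± 0.13 in ethanol mice and 2.13 ± 0.18 in water mice, and shares 11% of its 50-base stretches with a pseudogene. The genes of the main structural glycoproteins, Lamp2 (1.94 ± 0.06 in ethanol mice, 1.79 ± 0.08 in water mice) and Lamp1 (1.69 ± 0.06 in ethanol mice, 1.70 ± 0.08 in water mice), were in the middle of the class with Scarb2 (1.41 ± 0.06 in ethanol mice, 1.33 ± 0.08 in water mice), whose protein carries glucocerebrosidase to the lysosome.

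Mcoln1, the gene of the calcium channel TRPML1, did not differ between the fractions beyond its spread. It had 48.1, 59.7 and 78.4 CPM in isolated cells of ethanol mice, against 50.4, 61.5 and 67.9 in their homogenates. In water mice it had 43.8, 57.9 and 79.5 CPM in isolated cells, against 52.5, 57.9 and 73.1 in homogenates. The log2 fold change of Mcoln1 was 0.06 ± 0.08 in ethanol mice (FDR 0.496) and 0.11 ± 0.10 in water mice (FDR 0.29). The 95% interval reached from -0.11 to 0.23 in ethanol mice and from -0.08 to 0.31 in water mice.

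The 3 regulator and secreted protein genes were higher in isolated cells. Grn, which encodes progranulin, a secreted protein delivered to lysosomes, had 324, 366 and 436 CPM (lowest, median and highest) in isolated cells of ethanol mice, against 64.2, 70.9 and 84.0 in their homogenates. Its CPM in water mice were 257, 396 and 501 in isolated cells, against 59.6, 71.5 and 96.1 in homogenates. The fractions were far apart, at 2.46 ± 0.07 in ethanol mice (FDR 4.15e-22) and 2.55 ± 0.11 in water mice (FDR 1.1e-17) on the log2 scale.

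Tfeb itself, the regulator gene, changed by 2.73 ± 0.11 in ethanol mice and 2.50 ± 0.13 in water mice. Creg1, a gene for a secreted glycoprotein of the endolysosomal system, had 72.9, 97.9 and 134 CPM in isolated cells of ethanol mice, against 27.1, 31.2 and 39.9 in their homogenates. Water mice had 88.8, 105 and 121 CPM in isolated cells, against 27.4, 30.9 and 38.7 in homogenates. The log2 fold change of Creg1 was 1.72 ± 0.09 in ethanol mice (FDR 1.24e-16) and 1.78 ± 0.08 in water mice (FDR 2.03e-17).

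The 8 members with GTCACGTG in the promoter window had a median log2 fold change of 1.99 in ethanol mice and 1.93 in water mice, and the 27 members with a window but without it 1.88 in ethanol mice and 1.79 in water mice. The 8 ranged from 0.11 for Mcoln1 to 2.98 for Lgmn in water mice. For the core CACGTG the direction differed between the sets of mice. The 11 members with it, Gaa among them, had medians of 1.97 in ethanol mice and 1.87 in water mice. The 24 members with a window but without the core had 1.91 in ethanol mice and 1.94 in water mice. The 3 members with GAGGAAGT had medians of 3.35 in ethanol mice and 3.53 in water mice, and the other 32 had 1.8 in ethanol mice and 1.78 in water mice. Among those 32 were Laptm5 and Cd68, which had the highest fold changes of all members. These medians describe the members and were not tested.

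Markers of other cells moved with this comparison. All 16 microglial markers were higher in isolated cells, with a median log2 fold change of 3.53 in ethanol mice and 3.72 in water mice, and none was at 0 in any group. Their summed level was 0.717% to 1.12% of gene counts in isolated cells of ethanol mice, against 0.0669% to 0.0916% in their homogenates. In water mice it was 0.676% to 1.35% in isolated cells, against 0.0632% to 0.0972% in homogenates. All markers tested of perivascular and border macrophages, also phagocytes, were higher as well, 6 of 6 in ethanol mice and 7 of 7 in water mice (median 3.87 in ethanol mice, 3.55 in water mice). Their summed level was 0.0482% to 0.0966% of gene counts in isolated cells of ethanol mice, against 0.00362% to 0.00909% in their homogenates. All 9 mural cell markers (median 2.95 in ethanol mice, 2.62 in water mice), all 12 oligodendrocyte markers (median 3.59 in ethanol mice, 3.21 in water mice), all 10 endothelial markers (1.36 in ethanol mice, 1.37 in water mice) and 14 of 16 astrocyte markers (0.93 in ethanol mice, 1.15 in water mice) were higher too, with 2 astrocyte markers lower in ethanol mice and 0 in water mice, while all 12 neuronal markers were lower (-4.29 in ethanol mice, -4.23 in water mice). The summed level of the oligodendrocyte markers was above that of the microglial ones in isolated cells, at 1.53% to 2.70% of gene counts in ethanol mice and 1.32% to 2.49% in water mice. That of the astrocyte markers was 0.912% to 1.87% in ethanol mice and 1.06% to 3.07% in water mice. Summed levels of oligodendrocyte precursor and of fibroblast markers overlapped between the fractions in both sets of mice. Precursor markers averaged 0.0200% in isolated cells and 0.0234% in homogenates of ethanol mice, and 0.0211% and 0.0282% in water mice. Fibroblast markers averaged 0.00762% and 0.00664% in ethanol mice, and 0.00723% and 0.00621% in water mice. The part of each cell type in the fold changes of the lysosomal genes was not tested.

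Set beside these medians, 3 members in ethanol mice (Ctsc, Laptm5 and Cd68) and 2 in water mice (Laptm5 and Cd68) lay at or above the microglial median. In each set of mice 27 members lay between the microglial and the astrocyte median. The oligodendrocyte median was also high, at 3.59 in ethanol mice and 3.21 in water mice, so this placing does not tell microglia from oligodendrocytes. Below the astrocyte median lay 9 members in ethanol mice and 10 in water mice, among them Gaa, Glb1, Neu1, Arsb, Galc, Ppt1, Psap and Mcoln1 in both.

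The make-up of the lysosomal transcript pool differed between the fractions. On the scale of CPM per kilobase of exon, which allows genes to be compared, Ctsd was the most abundant member in isolated cells, with a level of 809 ± 99.4 in ethanol mice and 929 ± 178 in water mice (SD, n = 10 each). In isolated cells of ethanol mice it was followed by Psap (489 ± 27.9), Laptm5 (447 ± 113), Ctss (423 ± 79.9) and Lamp1 (358 ± 32.4), and Psap and Ctss lay within 1 SD of Laptm5. In homogenates Psap led, with 411 ± 26.5 CPM per kilobase in ethanol mice and 404 ± 42.8 in water mice (SD, n = 12 each), followed in ethanol mice by Ctsd (149 ± 10.1), Lamp1 (117 ± 8.67), Ctsb (104 ± 10.7) and Gaa (78.8 ± 14.9).

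**Figure D3:**
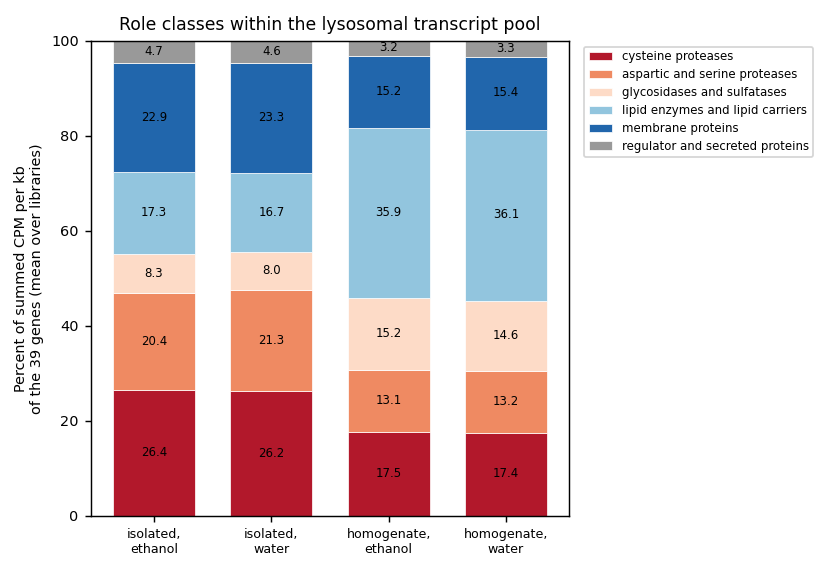
Percent of the summed CPM per kilobase of the 39 genes that fell to each role class, as the mean over libraries of isolated cells (10 of ethanol mice, 10 of water mice) and homogenates (12 of ethanol mice, 12 of water mice). In ethanol mice, lipid enzymes and carriers took 17.3% in isolated cells and 35.9% in homogenates.

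Of the summed CPM per kilobase, the cysteine proteases took 26.4% ± 1.60 in isolated cells of ethanol mice (SD, n = 10), against 17.5% ± 0.74 in their homogenates (SD, n = 12). The lipid enzymes and carriers took 17.3% ± 1.44 in these isolated cells and 35.9% ± 0.588 in the homogenates, of which Psap alone made up 10.6% in isolated cells and 27.9% in homogenates. Laptm5 made up 9.58% in isolated cells and 1.89% in homogenates of ethanol mice. In water mice the same classes took 26.2% ± 1.37 and 16.7% ± 2.04 in isolated cells (SD, n = 10), against 17.4% ± 0.771 and 36.1% ± 1.16 in homogenates (SD, n = 12). No class had overlapping libraries there, since the lowest share of cysteine proteases in isolated cells of water mice was 23.6% and the highest in homogenates 18.6%, and the highest share of lipid genes in isolated cells was 20.6% and the lowest in homogenates 34.3%.

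Other parts of the lysosomal pathway were not uniformly higher in isolated cells. Of 25 other hydrolases and activators tested, 20 were higher and 1 was lower in each set of mice, with a median of 0.85 in ethanol mice and 1.0 in water mice. They ran from the nuclease gene Dnase2a (3.37 ± 0.13 in ethanol mice, 3.39 ± 0.14 in water mice) down to the iduronate sulfatase gene Ids (-2.05 ± 0.07 in ethanol mice, -2.0 ± 0.15 in water mice). Of 20 other membrane proteins and transporters, 12 were higher and 4 were lower in each set of mice (median 0.76 in ethanol mice, 0.81 in water mice). Among them were the peptide transporter gene Slc15a3 (5.62 ± 0.19 in ethanol mice, 5.94 ± 0.18 in water mice) and Lamp5, a neuronal relative of Lamp1 (-5.45 ± 0.39 in ethanol mice, -4.89 ± 0.40 in water mice).

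Subunits of the v-ATPase were mostly lower, with 13 of 19 lower and 5 higher in each set of mice (median -0.69 in ethanol mice and -0.62 in water mice). The subunit gene Tcirg1 was nevertheless higher by 3.35 ± 0.11 in ethanol mice and 3.38 ± 0.15 in water mice, while the subunit gene Atp6v1g2 was at -4.39 ± 0.12 in ethanol mice and -3.92 ± 0.17 in water mice. Genes for sorting to the lysosome were divided, with 8 higher and 7 lower of 20 in ethanol mice and 6 higher and 6 lower in water mice (median 0.03 in both). Of 19 genes of the MiT/TFE factors and of mTORC1 nutrient sensing, 7 were higher and 9 lower in ethanol mice, and 7 higher and 8 lower in water mice (medians -0.10 in ethanol mice, -0.13 in water mice), with the folliculin gene Flcn at 1.94 ± 0.06 in ethanol mice and 1.87 ± 0.10 in water mice. Of 22 autophagy genes, 8 were higher and 10 lower in ethanol mice, and 8 higher and 9 lower in water mice (medians -0.05 in ethanol mice, -0.03 in water mice), from the cargo receptor gene Sqstm1 (0.90 ± 0.07 in ethanol mice, 1.01 ± 0.10 in water mice) to Gabarapl1 (-1.69 ± 0.09 in ethanol mice, -1.59 ± 0.12 in water mice), whose protein coats autophagosomes. The counts of the sorting, nutrient sensing and autophagy lists stand beside shares over all genes tested of 39.8% higher and 41.9% lower in ethanol mice and 37.2% higher and 40.3% lower in water mice.

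The study then asked whether drinking ethanol changed these cells. In isolated cells 0 of the 39 members were called between ethanol mice (n = 10) and water mice (n = 10), and neither was any of the 11122 genes tested (0%). With edgeR 13 members lay above 0 (49.6% of all genes) and 26 below (50.4%), with a median log2 fold change of -0.03 and a lowest FDR of 0.871. No marker was called here either, but all 16 microglial markers (median -0.16) and all 16 astrocyte markers (median -0.26, 3 at an unadjusted p under 0.05) also lay below 0, and 8 of 9 mural cell markers lay above 0 (median 0.49, 6 at an unadjusted p under 0.05). Their part in the members' values was not tested. At an unadjusted p under 0.05 there was 1 member, against 600 genes (5.39%). DESeq2 also called 0 members, and 18 of all genes. For no member did the ethanol and water libraries separate, nor did they for any of the 11122 genes tested (0%). The 95% interval of 38 of the 39 members lay inside 1.5-fold in either direction and that of all 39 inside 2-fold, so the data bound the size of an ethanol difference in these genes without showing that there was none.

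The 3 members above 0 and the 3 below 0 with the lowest p in isolated cells are given here. Ctsf had 73.9, 96.5 and 111 CPM (lowest, median and highest) in ethanol mice, against 74, 112 and 143 CPM in water mice. Its log2 fold change was -0.23 ± 0.11 (unadjusted p 0.0347, FDR 0.871), with 9 of 10 ethanol libraries below the mean of the water libraries. Glb1 had 19.7, 30.1 and 37.4 CPM in ethanol mice, against 12.7, 23.7 and 37.1 CPM in water mice, a log2 fold change of 0.26 ± 0.14 (unadjusted p 0.0832, FDR 0.963), with 8 of 10 ethanol libraries above the water mean. The ranges of ethanol and water mice overlapped for both genes.

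Laptm5 had 785, 1114 and 1637 CPM in isolated cells of ethanol mice, against 739, 1381 and 2571 CPM in those of water mice, a log2 fold change of -0.38 ± 0.20 (unadjusted p 0.0692, FDR 0.960). Its direction rested on the 5 shallow water libraries, and without them the log2 fold change was 0.19 ± 0.18 (FDR 0.953). Astrocyte marker levels (mean log2 CPM) ran from 8.17 to 9.03 in these shallow libraries and from 8.76 to 9.79 in the other water libraries. Microglial marker levels ran from 8.59 to 9.31 in the shallow libraries and from 8.24 to 9.04 in the others. Depth and marker level cannot be told apart here. Ctsd was at -0.22 ± 0.12 (FDR 0.960) with all libraries and at -0.05 ± 0.13 (FDR 0.993) without the shallow ones. Npc1 (0.10 ± 0.09) and Galc (0.13 ± 0.11) each had an FDR of 0.997.

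**Figure D4:**
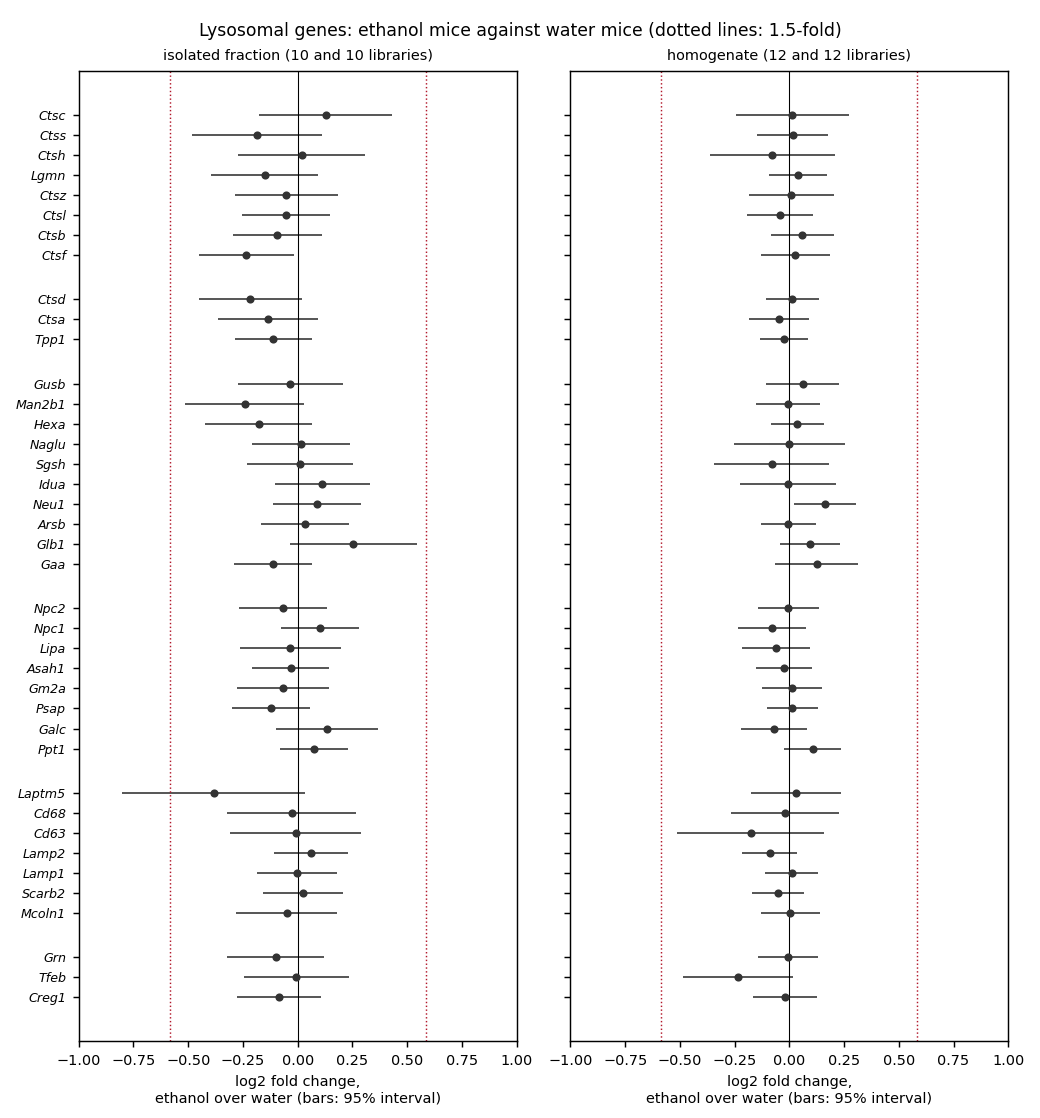
Log2 fold change of ethanol over water mice for the 39 lysosomal genes in isolated cells (left, 10 and 10 libraries) and in homogenate (right, 12 and 12 libraries), with bars for 95% intervals and dotted lines at 1.5-fold. The points lie around 0 in both fractions, and the interval of Laptm5 in isolated cells reaches lowest, to -0.80.

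In the homogenate 0 of the 39 members were called between ethanol mice (n = 12) and water mice (n = 12), as was none of the 13576 genes tested (0%). With edgeR 18 members lay above 0 (47.7% of all genes) and 21 below (52.3%), the lowest FDR was 0.979, and 1 member had an unadjusted p under 0.05, against 467 genes (3.44%). DESeq2 called 0 members too. All 39 intervals lay inside 1.5-fold. The member with the lowest unadjusted p was Neu1, with 57.7, 74.9 and 83.3 CPM in ethanol mice, against 49.0, 65.4 and 77.5 CPM in water mice (0.16 ± 0.07, unadjusted p 0.0265, FDR 0.979), and 10 of 12 ethanol homogenates were above the water mean. On the lower side it was Tfeb, with 7.24, 8.72 and 15.0 CPM in ethanol mice, against 8.23, 10.3 and 17.6 CPM in water mice (-0.24 ± 0.12, unadjusted p 0.0665, FDR 0.979). Ppt1 (0.11 ± 0.06), Glb1 (0.10 ± 0.07), Lamp2 (-0.09 ± 0.06) and Cd63 (-0.18 ± 0.16) had the same FDR of 0.979.

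Whether the ethanol effect differed between the fractions was tested as an interaction over all 44 libraries. It called 0 members and 0 of 14087 genes (0%), with 1 member and 834 genes (5.92%) at an unadjusted p under 0.05, and DESeq2 called 0 members. The member with the lowest p was Ctsf, at -0.27 ± 0.13 (unadjusted p 0.0415, FDR 0.814), where the difference is isolated minus homogenate in the log2 ratio of ethanol to water. It was followed by Gaa (-0.24 ± 0.13) and Ctsd (-0.23 ± 0.12) below 0, and by Npc1 (0.18 ± 0.11), Lamp2 (0.15 ± 0.09) and Galc (0.20 ± 0.13) above 0. Of the 39 intervals 37 lay inside 1.5-fold and all 39 inside 2-fold.

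Among the 20 isolated libraries the members varied with the levels of cell type markers. The median coefficient of variation of the members was 14.1% in ethanol mice and 19.1% in water mice, and was higher in water mice for 29 of 39. The microglial marker level, the mean log2 CPM of 16 markers, ran from 8.29 to 9.02 in ethanol mice and from 8.24 to 9.31 in water mice. The astrocyte marker level, likewise of 16 markers, ran from 8.07 to 8.97 in ethanol mice and from 8.17 to 9.79 in water mice. These levels tended to run opposite, from 9.31 microglial and 8.17 astrocyte in water mouse 70 to 8.24 and 9.79 in water mouse 73. Members were fitted on these levels with treatment in the model, as log2 change per unit of log2 marker level, and the levels come from the same libraries as the members.

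With the microglial level alone, 15 of 39 members (38.5%) rose with it, against 8.24% of the 11122 genes tested. The steepest of those named were Laptm5 (1.2 ± 0.30, FDR 0.00743), Ctss (1.11 ± 0.16, FDR 1.58e-05), Cd68 (1.09 ± 0.18, FDR 5.62e-05) and Ctsh (1.07 ± 0.18, FDR 0.000102). All but Ctsf of the cysteine proteases were among the 15, as were Ctsd, Ctsa, Hexa, Man2b1, Arsb and Grn. The lipid genes were not, with Psap at 0.18 ± 0.14 (FDR 0.424), and neither was Gaa (-0.29 ± 0.14, FDR 0.197).

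With the astrocyte level alone, the same 15 members fell with it, against 7.33% of all genes, with Ctss at -0.97 ± 0.10 (FDR 1.8e-07) and Laptm5 at -1.11 ± 0.20 (FDR 0.000511). As the levels ran opposite, this is not a result separate from the rise with the microglial level. Mouse 73 lies at the end of both scales. Without its library 13 members rose with the microglial level (5.67% of all genes) and 1, Npc1, fell with it (3.39%), while 13 fell with the astrocyte level (2.67%), a setting chosen after the data were seen.

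**Figure D5:**
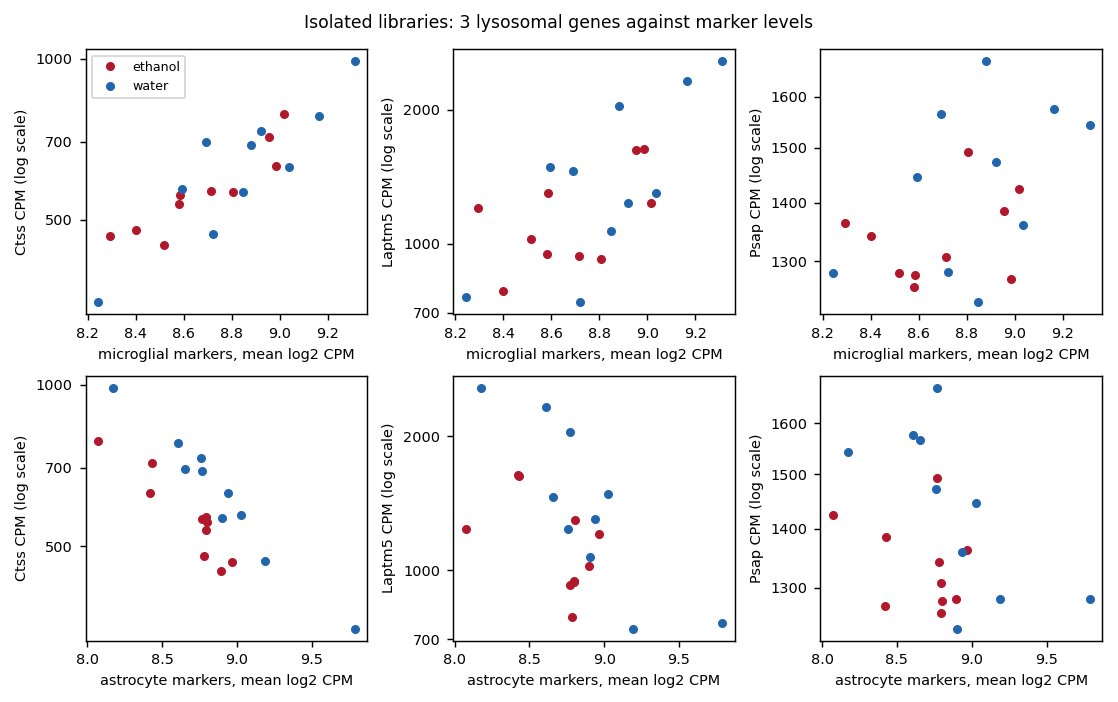
CPM (log axis) of Ctss, Laptm5 and Psap in the 20 isolated libraries against the mean log2 CPM of microglial markers (top) and astrocyte markers (bottom), with ethanol mice in red and water mice in blue. Ctss is highest, at 988 CPM, in the library with the highest microglial level, 9.31, and lowest, at 351 CPM, in the library with the highest astrocyte level, 9.79.

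Each marker level was also fitted with the other in the model, which separates them poorly because they ran opposite. Then 0 members were called on the microglial level (0.342% of all genes were), with 1 member at an unadjusted p under 0.05, against 12.6% of all genes, and 0 called by DESeq2. The steepest positive slope was that of Ctsc (0.99 ± 0.42, unadjusted p 0.0248, FDR 0.308), followed by Cd63 (0.88 ± 0.55) and Creg1 (0.54 ± 0.32), and the lowest were those of Galc (-0.58 ± 0.40), Npc1 (-0.49 ± 0.25) and Lamp1 (-0.39 ± 0.27). With the microglial level alone, Ctsc had nearly the same slope with a smaller SE (0.97 ± 0.21, FDR 0.00116). On the astrocyte level 1 member fell, Ctss (-0.85 ± 0.18, FDR 0.0158), against 0.728% of all genes. This call was lost without the library of mouse 73 (-0.83 ± 0.22, FDR 0.135), with upper-quartile scaling (-0.79, FDR 0.323) and without the libraries under 1000000 counts (-0.68, FDR 0.745). Laptm5 (-1.08 ± 0.43, FDR 0.327) and Man2b1 (-0.63 ± 0.22, FDR 0.219) had slopes below 0 that were not called, and Cd63 (0.61 ± 0.43), Naglu (0.28 ± 0.33) and Glb1 (0.26 ± 0.44) the highest.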

How the data were processed

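The deposited files hold raw read counts per gene symbol, made by the authors, for 44 libraries of 45 labelled samples; the isolated library of water mouse 72 was not analysed here. The submitters' processing notes name mm10, HTSeq 0.5.3p9, Bowtie2 2.2.5, Picard 1.141, cutadapt 1.8, bcl2fastq 2.17 and also DESeq2. The kit was directional per the labels' protocols. Whether HTSeq used strand, and which annotation, is not given in the sources used here. Tally lines that name no gene (5 per file) entered no library size or test. Of all reads, unaligned ones included, 4.05% to 20.6% lay outside genes in isolated libraries and 18.8% to 36.2% in homogenates. Reads that did not align were 37.4% to 90.3% of all reads in isolated libraries (median 75.1%). In homogenates they were 18.0% to 55.2% (median 27.3%).

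Groups came from the labels. Counts were tested with edgeR 4.0.16 in R 4.3.3 (quasi-likelihood, robust, TMM scaling, expression filter by group), with Benjamini-Hochberg adjustment over all genes tested and 95% intervals; DESeq2 1.42.0 was an alternative. Each comparison was fitted on its own groups, and the interaction on all 4. The scripts were tested on simulated counts with known changes. Within each group, libraries differed by more than sampling noise. Both fractions of a mouse carry its number in the labels and come from the same tissue, so the numbers pair them. Over 20 pairs the correlation of their deviations had a median of 0.0521 (-0.0326 to 0.177). Between different mice of the same treatment the median was -0.00461. For 6 of the 20 mice, the homogenate that correlated best with the isolated library was their own. A count of 0 allows up to 0.923 to 5.95 CPM in isolated libraries and 0.329 to 0.817 CPM in homogenates (3 counts), for counting error only.

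Exon lengths and overlaps are from GENCODE M21, promoter windows from RefSeq. The 39 members, the pathway and marker lists and the tests were chosen with earlier results of these data known. Full values are given for the highest and lowest fold change of each role in water mice and for the 3 higher and 3 lower members with the lowest p in each ethanol test; of pathway lists, the 2 highest and 2 lowest genes could be named.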

Additional observations from a re-analysis of the deposited data

Results flagged for a closer look

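Of 78 sets of member values in the isolated libraries, 39 genes in ethanol and in water mice, 1 held a library far from the rest of its group, where chance flags about 5% of such sets. It was Sgsh in water mice, where mouse 80 stood highest at 52.6 CPM, with the nearest library at 43.7 CPM and the group median at 40.5 CPM. That library was the shallowest of all, with 504492 counts. No member's ethanol effect differed between the fractions in the interaction test.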

How the results depend on the processing

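Over the alternative settings (other scalings, no filter, DESeq2, shallow libraries left out, thinning, mouse block), 36 to 37 members were higher and 1 lower in isolated cells of ethanol mice, and 36 to 38 higher and 1 lower in water mice; with upper-quartile scaling the all-gene median shifted by 0.097 in ethanol mice and 0.105 in water mice. With thinning, 38 of 39 members were tested in ethanol mice. Single calls that changed were Glb1 and Mcoln1 in water mice. Glb1 was lost with DESeq2 size factors (0.23, FDR 0.0625), without a filter (0.22, FDR 0.103) and with the replicate block (mouse) (0.26, FDR 0.0970); Mcoln1 was gained with upper-quartile scaling (0.22, FDR 0.0459). The block gave 37 members higher in ethanol mice, 36 in water mice and 0 in the interaction, and changed no other call. For ethanol, 0 members were called in isolated cells or homogenate under any alternative, including each of 20 and 24 fits that left out 1 library (lowest and highest count 0). Values that changed sign were Laptm5 in isolated cells without libraries under 1000000 counts (0.19), Npc1 there with both marker levels as covariates (-0.0047), and Neu1 in thinned homogenates (-0.0011). The cause was not tested.

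On the microglial level the count of called members was 15 (15 higher) without the astrocyte level in the model and 14 (13 higher, 1 lower) without mouse 73 as well, where the setting without mouse 73 was chosen after seeing the data. On the astrocyte level it was 15, all lower, without the microglial level, 13, all lower, without mouse 73 as well, and 2, both lower, with DESeq2. It was 0 with DESeq2 size factors, upper-quartile scaling, no filter, without libraries under 1000000 counts, with thinning, without mouse 73 alone, in ethanol mice alone and in water mice alone. Slopes that changed sign were Lamp1 on the microglial level without the astrocyte level (0.072), Cd63 (-0.39) and Galc (0.14) on it in water mice alone, and, on the astrocyte level, Glb1 with thinning (-0.33), Naglu without the microglial level (-0.063), and Cd63 without mouse 73 and the microglial level (-0.084) and in water mice alone (-0.20).

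Depth limits the isolated fraction of water mice most, where the lowest count of a member in a library was 7. Thinning the homogenates to 504492 counts left 31 of 39 members tested.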
